A study of Homo sapiens with 6 samples.

Results

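Iron handling and lipid peroxidation genes were followed in MDA-MB-231 cells given a plant extract. The 10 genes, taken as a named list out of 60651 gene rows, were the ferritin chain genes FTH1 and FTL, the transferrin receptor gene TFRC, the iron exporter gene SLC40A1 (ferroportin), the heme oxygenase gene HMOX1, the ferritin receptor gene NCOA4, the lipid peroxidase gene GPX4, the acyl-CoA synthetase gene ACSL4, AIFM2 (the ferroptosis suppressor FSP1) and IREB2 (iron regulatory protein IRP2). Each gene had 1 row, and 10 of 10 passed the filter on low counts. MDA-MB-231 is an established triple-negative breast cancer line, given as wild type in the labels. The 3 groups were kept for 24 h with DMSO as control or with 75 µg/ml or 150 µg/ml of AF-EAE. The latter is made from the plant Antenoron filiforme with ethyl acetate, and its constituents are not listed in the labels. Each group had 2 libraries, numbered as biological replicates. Separate cultures are not stated, so the p-values cover the spread between these libraries, which may be technical. The series title places the study on proliferation and the SKP2/P21 axis, and the labels state no question about iron.

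Cells take up transferrin-bound iron through the transferrin receptor, store the excess inside ferritin shells built from heavy and light chains, and export it through ferroportin. Heme oxygenase frees iron from heme, and NCOA4 carries ferritin to the lysosome, where its iron is released. When iron is scarce, the iron regulatory proteins bind hairpins called iron-responsive elements. In the 5′ UTR of the ferritin and ferroportin transcripts this binding holds back translation, and in the 3′ UTR of the TFRC transcript it protects the RNA from decay. Ferroptosis is a form of cell death driven by iron-dependent peroxidation of membrane lipids. ACSL4 feeds it by activating polyunsaturated fatty acids, while GPX4, which reduces lipid peroxides with glutathione, and FSP1, which regenerates the lipid antioxidant ubiquinol, hold it back.

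The hairpin sequences are shown because they join 4 of the listed genes, of which 3 were higher and 1 was lower at each dose. A search was made of the UTRs of GENCODE 29 coding transcripts for a C, then 5 bases, then CAGTG and 1 further base, then 5 bases able to pair with the first 5 (Watson-Crick or G with T). Capitals mark the 17-base match, and each line gives 30 bases on the strand of the gene, 5′ to 3′. FTH1 (chr11:61967573-61967602, minus strand), FTL (chr19:48965335-48965364, plus strand) and SLC40A1 (chr2:189580660-189580689, minus strand) matched in the 5′ UTR. TFRC (minus strand of chromosome 3) matched 4 times in its 3′ UTR, listed from the 5′ end. All positions are on GRCh38.
FTH1: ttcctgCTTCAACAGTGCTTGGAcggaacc
FTL: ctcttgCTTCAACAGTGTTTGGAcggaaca
SLC40A1: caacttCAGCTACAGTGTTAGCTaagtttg
TFRC, chr3:196050978-196051007: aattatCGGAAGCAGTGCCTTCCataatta
TFRC, chr3:196050574-196050603: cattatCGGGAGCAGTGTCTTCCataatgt
TFRC, chr3:196050509-196050538: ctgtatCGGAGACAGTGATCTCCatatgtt
TFRC, chr3:196050462-196050491: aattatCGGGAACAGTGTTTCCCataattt

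The pattern was present in the 5′ UTR of 28 of 12192 tested coding genes with such a UTR (0.23%), and in the 3′ UTR of 109 of 12329 (0.884%). The other 6 listed genes had no match in these windows, which says only that the letters are not there. The counts measure RNA and not translation, so they do not show the protein levels of ferritin or ferroportin.

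FTH1, FTL, SLC40A1, HMOX1 and AIFM2 were higher and TFRC, GPX4, ACSL4 and NCOA4 lower at both doses. At 75 µg/ml against DMSO, 5 of the 10 genes were thus higher, 4 were lower and IREB2 did not pass the test (edgeR's quasi-likelihood test, Benjamini-Hochberg adjusted p over all tested genes, threshold 0.05). Of all 15589 tested genes, 38.6% were called, 19.2% higher and 19.4% lower. At 150 µg/ml, 6 were higher and 4 lower, beside 51.5% of all genes called, 25.8% higher and 25.7% lower. From 75 to 150 µg/ml, 3 were higher, 2 lower and 5 not called, beside 22.0% called, 9.51% higher and 12.5% lower. The median absolute log2 fold change of the 10 genes was 0.49, 0.81 and 0.28 in these comparisons, against 0.28, 0.38 and 0.19 over all tested genes. Both dose comparisons share the DMSO libraries. Under total-count scaling the median of all genes moved from 0.01 to 0.14 at 75 µg/ml and from 0.03 to 0.22 at 150 µg/ml. The calls of NCOA4 at both doses and of GPX4 at 75 µg/ml were then lost, and IREB2 passed at 75 µg/ml. The split of the 10 genes was then 6 higher and 2 lower at 75 µg/ml, 6 higher and 3 lower at 150 µg/ml, and 4 higher and 2 lower in the dose step. The split of all genes became 4501 higher and 1816 lower at 75 µg/ml (2989 and 3026 with TMM). The split at 150 µg/ml became 6031 and 2542 (4022 and 4000 with TMM), and in the dose step 2206 and 1345 (1482 and 1951). Changes below are relative to the TMM scaling (levels in CPM, the counts as a rate of the scaled library size).

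**Figure D1:**
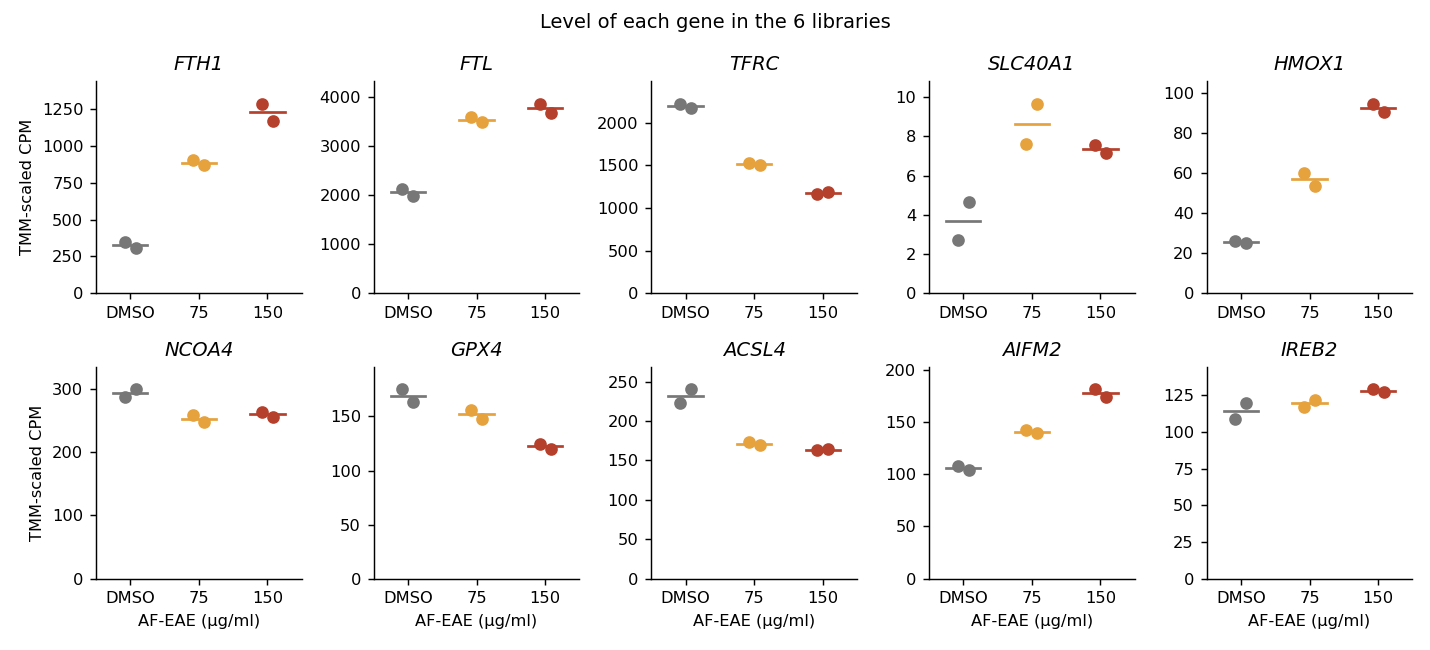
Level of each of the 10 genes in the 6 libraries, in TMM-scaled CPM on an axis from 0, by group. Points are libraries and horizontal lines are group means. FTH1, FTL, HMOX1 and AIFM2 lie above DMSO at both doses with no overlap, and TFRC, GPX4, ACSL4 and NCOA4 lie below, NCOA4 not under total-count scaling at 150 µg/ml (0.01).

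The storage genes rose at both doses. FTH1 encodes the ferritin heavy chain, which oxidises iron as it enters the shell. Its level was 351 and 304 CPM in the DMSO libraries, 906 and 872 CPM at 75 µg/ml and 1289 and 1171 CPM at 150 µg/ml. The 3 groups did not overlap. Against DMSO its log2 fold change was 1.44 (SE 0.0616, adjusted p = 1.8e-11) at 75 µg/ml and 1.91 (SE 0.0621, adjusted p = 1.2e-13) at 150 µg/ml. The step from 75 to 150 µg/ml was 0.47 (SE 0.0592, adjusted p = 2.4e-05). Of all tested genes, 96.3% and 97% changed by less than FTH1 at 75 and 150 µg/ml.

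FTL encodes the light chain, which helps the iron core to form. It was at 2136 and 1995 CPM in the DMSO libraries, 3594 and 3491 CPM at 75 µg/ml and 3871 and 3684 CPM at 150 µg/ml. Every treated library was above both DMSO libraries, and the doses differed little. FTL changed by 0.78 on the log2 scale (SE 0.044, adjusted p = 5.3e-10) at 75 µg/ml and 0.87 (SE 0.0441, adjusted p = 3.6e-11) at 150 µg/ml. The dose step of 0.09 (SE 0.0436) did not pass the test (adjusted p = 0.147). It passed under limma-voom (adjusted p = 0.0467) and total counts (0.15, adjusted p = 0.0145).

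The 2 chains were also compared with each other. Within each library, FTH1 had 0.164 and 0.152 counts per FTL count in DMSO, 0.252 and 0.25 at 75 µg/ml, then 0.333 and 0.318 at 150 µg/ml. Each ratio was above those of the lower dose in every library. The ratio needs no scaling between libraries, but as a ratio of counts it depends on the genes' lengths and on lost reads, and does not give the molar proportion of the chains. The log2 ratio was higher than in DMSO by 0.67 at 75 µg/ml and by 1.04 at 150 µg/ml, and differed by 0.37 between the doses. Each difference had p = 0.333 in a two-sided exact permutation test, the smallest that 2 libraries against 2 allow, so none passed the threshold.

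Both ferritin genes have processed copies elsewhere in the genome, and FTH1 (ENSG00000167996.16, chromosome 11, 61959718 to 61967660, minus strand) also overlaps BEST1 over 62.4% of its exonic length. In GENCODE 29 transcripts, 40.4% of the 50-base windows and 20.2% of the 100-base windows of the main FTH1 transcript occur exactly in another gene, and all 15 such genes are FTH1 copies. For FTL (ENSG00000087086.15, chromosome 19, 48965301 to 48966878, plus strand), 18.3% of the 50-base windows and 3.34% of the 100-base windows recur, in FTLP2 and FTLP3. No source used here gives the read length or the treatment of reads with several alignments, so both levels are uncertain to that extent. The deposited summary row for reads with several alignments held 0 in every library. Whether such reads were removed earlier or counted is not known. Among the other listed genes NCOA4 shared most. Of its 50-base windows 8.55% recur in NCOA4P3 and NCOA4P4, and none of its 100-base windows recur.

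Few reads were counted in the copies. The 25 FTH1 copies on a row held 25 and 25 counts in DMSO, 63 and 51 at 75 µg/ml, then 79 and 59 at 150 µg/ml, which is 0.293% to 0.539% of the FTH1 counts. The 16 FTL copies held 17 to 47 counts per library, 0.051% to 0.0809% of the FTL counts. With the copies added to their parent gene before the fit, the log2 fold changes were again 1.44 and 1.91 for FTH1 and 0.78 and 0.87 for FTL. With so few counts in the copies, this addition could hardly move the values. It does not address reads that match both a gene and its copy and may be counted in neither. The most counted copies were FTH1P2, FTH1P7 and FTH1P8 for FTH1 and FTLP12, FTLP3 and FTLP6 for FTL. FTH1P7 went from 3 and 1 counts in DMSO to 17 and 16 at 150 µg/ml, and FTH1P8 from 2 and 2 to 13 and 13. These counts rose with those of the parent gene, and whether they are reads of FTH1 itself was not tested. BEST1 held 1 to 12 counts per library.

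**Figure D2:**
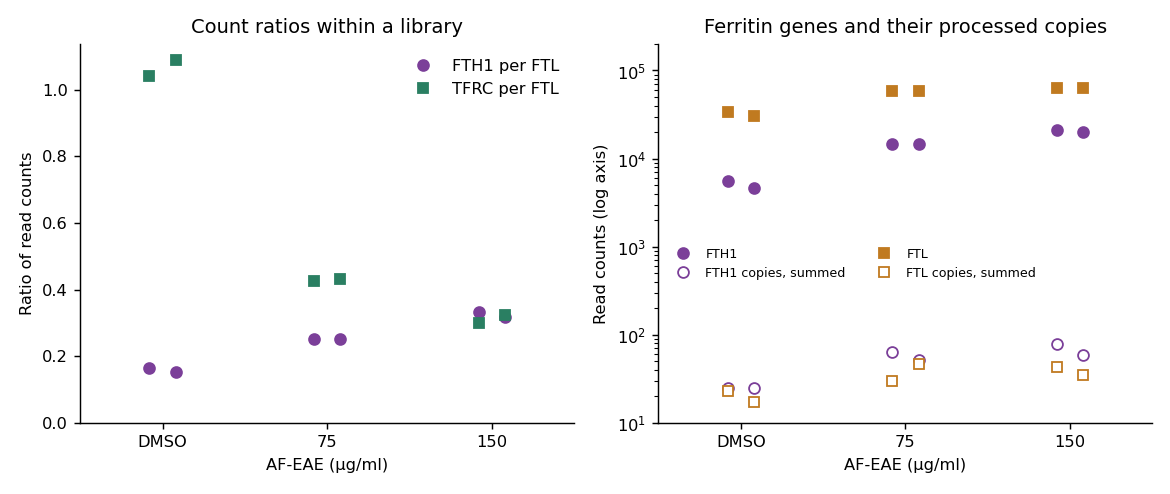
Left, ratio of read counts within each library, FTH1 per FTL (circles) and TFRC per FTL (squares), by group. FTH1 per FTL runs from 0.152 in DMSO to 0.333 at 150 µg/ml. Right, read counts of the ferritin genes (filled) and of the sum of their processed copies (open) on a log axis, where the copies stay under 100 counts in each library.

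The uptake gene moved against the storage genes. TFRC (ENSG00000072274.13, chromosome 3, 196027183 to 196082189, minus strand) encodes transferrin receptor 1. Its level was 2222 and 2169 CPM in the DMSO libraries, 1531 and 1505 CPM at 75 µg/ml and 1162 and 1192 CPM at 150 µg/ml. The libraries of the 3 groups were fully separate and lower at the higher dose. TFRC changed on the log2 scale by -0.53 (SE 0.0403, adjusted p = 2.0e-08) at 75 µg/ml, -0.90 (SE 0.0406, adjusted p = 8.3e-12) at 150 µg/ml and -0.37 (SE 0.0404, adjusted p = 5.5e-06) from 75 to 150 µg/ml. TFRC had 1.04 and 1.09 counts per FTL count in DMSO, 0.426 and 0.431 at 75 µg/ml, then 0.3 and 0.323 at 150 µg/ml. None of the 50-base windows of its transcript recurs in another gene.

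Export was measured at low counts. SLC40A1 (ENSG00000138449.11, chromosome 2, 189560579 to 189583758, minus strand) had 43 and 71 counts in DMSO, 125 and 161 at 75 µg/ml, then 125 and 123 at 150 µg/ml, or 2.71 and 4.65 CPM, 7.64 and 9.67 CPM, and 7.55 and 7.14 CPM. Every treated library was above both DMSO libraries, and the DMSO libraries differed from each other by a larger factor than for any other listed gene. The log2 fold change was 1.24 (SE 0.228, adjusted p = 3.4e-04) at 75 µg/ml and 1.00 (SE 0.231, adjusted p = 0.00148) at 150 µg/ml. These became 0.89 (adjusted p = 0.00515) and 0.66 (adjusted p = 0.028) without DMSO replicate 1, and 1.67 and 1.43 without DMSO replicate 2. The dose step was -0.24 (SE 0.207, adjusted p = 0.471).

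Heme breakdown and ferritin turnover genes differed in direction. HMOX1 (ENSG00000100292.18, chromosome 22, 35380361 to 35394214, plus strand), which encodes the inducible heme oxygenase, was at 26.1 and 24.9 CPM in the DMSO libraries, 60.1 and 53.6 CPM at 75 µg/ml and 94.4 and 90.4 CPM at 150 µg/ml. Each group lay above the one before it with no overlap. HMOX1 had log2 fold changes of 1.16 (SE 0.0823, adjusted p = 8.8e-09), then 1.86 (SE 0.0798, adjusted p = 4.3e-12), with a dose step of 0.70 (SE 0.0725, adjusted p = 2.9e-06). That step was the largest of the 10 genes. NCOA4 (ENSG00000266412.6, chromosome 10, 46005088 to 46030714, minus strand) was at 287 and 299 CPM in the DMSO libraries, 259 and 247 CPM at 75 µg/ml and 264 and 255 CPM at 150 µg/ml. Its treated libraries lay below DMSO, and those of the 2 doses overlapped. The log2 fold changes of -0.21 (SE 0.0485, adjusted p = 0.0021) and -0.18 (SE 0.0484, adjusted p = 0.00537) depended on the scaling. Under total counts they were -0.09 (adjusted p = 0.175) and 0.01 (adjusted p = 0.866), so the direction at 150 µg/ml turned with the scaling and neither dose passed the test under total counts.

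Of the iron regulatory proteins, IREB2 (ENSG00000136381.13, chromosome 15, 78437431 to 78501456, plus strand) encodes IRP2. It was at 109 and 120 CPM in the DMSO libraries, 117 and 122 CPM at 75 µg/ml and 129 and 127 CPM at 150 µg/ml. DMSO and 75 µg/ml overlapped, and the 150 µg/ml libraries were the highest. The log2 fold change was 0.06 (SE 0.0589, adjusted p = 0.442) at 75 µg/ml and 0.16 (SE 0.0586, adjusted p = 0.0259) at 150 µg/ml. The call at 150 µg/ml was lost in DESeq2 (adjusted p = 0.107), with no filter (0.0533), and without DMSO replicate 1 (0.10, adjusted p = 0.261) or either 150 µg/ml library (adjusted p = 0.125 and 0.0761). Under total counts IREB2 passed at both doses (0.19, adjusted p = 0.0173, and 0.35, adjusted p = 7.0e-05).

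Among the lipid peroxidation genes, GPX4 and ACSL4 were lower and AIFM2 was higher. GPX4 (ENSG00000167468.18, chromosome 19, 1103926 to 1106791, plus strand) was at 175 and 163 CPM in the DMSO libraries, 156 and 148 CPM at 75 µg/ml and 125 and 120 CPM at 150 µg/ml. The groups did not overlap, with most of the fall at the higher dose. The log2 fold change was -0.47 (SE 0.0559, adjusted p = 1.7e-06) at 150 µg/ml and -0.31 (SE 0.056, adjusted p = 6.4e-04) from 75 to 150 µg/ml. At 75 µg/ml it was -0.16 (SE 0.0552, adjusted p = 0.0328), a call lost under total counts (-0.03, adjusted p = 0.705), a filter of 5 CPM (adjusted p = 0.0511), and without DMSO replicate 1 (adjusted p = 0.238) or the second 75 µg/ml library (adjusted p = 0.242). The value at 150 µg/ml was -0.28 under total counts (adjusted p = 3.4e-04).

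ACSL4 (ENSG00000068366.20, chromosome X, 109624244 to 109733403, minus strand) was at 223 and 240 CPM in the DMSO libraries, 173 and 169 CPM at 75 µg/ml and 163 and 164 CPM at 150 µg/ml. Treated libraries lay well below DMSO and close to each other. For ACSL4 the log2 fold changes were -0.44 (SE 0.0515, adjusted p = 3.2e-06) at 75 µg/ml and -0.50 (SE 0.0516, adjusted p = 3.2e-07) at 150 µg/ml, the latter -0.31 under total counts (adjusted p = 6.6e-05). The dose step of -0.06 (SE 0.0521) did not pass the test (adjusted p = 0.472) and turned to 0.0015 under total counts.

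AIFM2 (ENSG00000042286.15, chromosome 10, 70098223 to 70132934, minus strand) rose with dose, from 108 and 104 CPM in DMSO to 142 and 139 CPM at 75 µg/ml and 181 and 174 CPM at 150 µg/ml. Each group was separate from the next. Its log2 fold changes were 0.40 (SE 0.0541, adjusted p = 1.4e-05), then 0.74 (SE 0.0534, adjusted p = 3.3e-09), and 0.34 (SE 0.0522, adjusted p = 1.7e-04) between the doses.

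**Figure D3:**
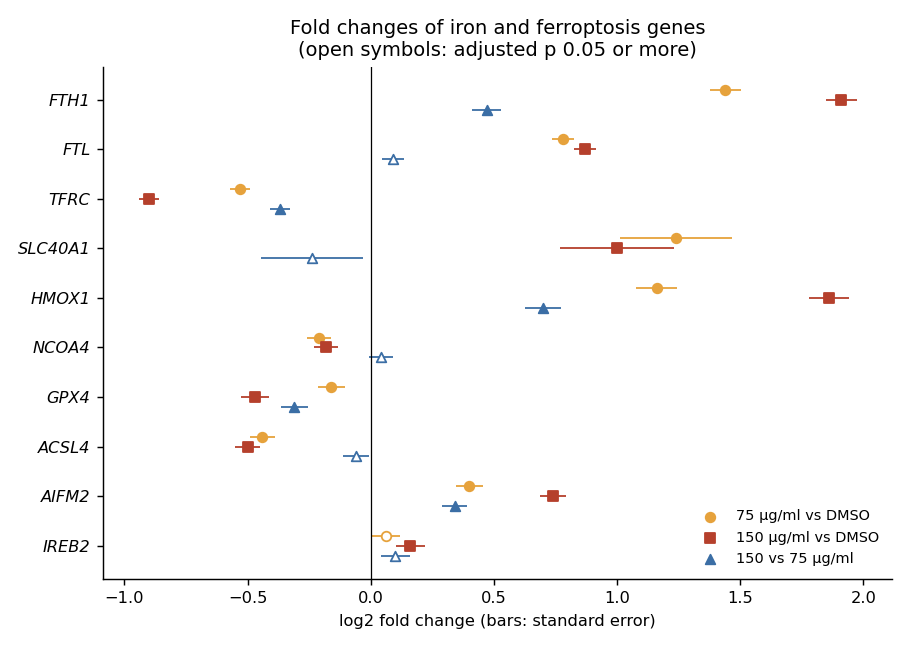
Log2 fold change of each gene with its standard error, for 75 µg/ml against DMSO (circles), 150 µg/ml against DMSO (squares) and 150 against 75 µg/ml (triangles). Open symbols did not pass the test. FTH1 (1.91) and HMOX1 (1.86) reach the highest values and TFRC (-0.90) the lowest.

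The 250 bases before the start of each gene were searched on both strands, in the RefSeq promoters of GRCh38.p14, since several members moved together. RefSeq starts differ from the GENCODE 29 spans given above, and the matches of AIFM2, GPX4 and IREB2 lie inside those spans. The promoter set held 8 of the 10 genes. FTH1 and HMOX1 were absent from it, so their promoters were not searched. Some genes have several promoters in the set, GPX4 among them. Percentages below are shares of promoters, while a listed gene counts if any of its promoters matches. The shares and the gene counts are thus not on the same footing. The core of the antioxidant response element, TGACNNNGC, to which NRF2 binds with a small MAF partner, was in 10.9% of 35116 promoters and in that of AIFM2 alone among the 8. The match lay on the other strand at chr10:70132829-70132857, shown here on the AIFM2 strand with the match in capitals, because AIFM2 rose at each dose.
AIFM2: cagcacgagtGCTGAGTCAcgccccgccc
The letters GCGTG, the core to which the aryl hydrocarbon receptor binds, were in 32.2% of promoters and in 5 of the 8 (FTL, GPX4, ACSL4, AIFM2 and IREB2). The E-box CACGTG was in 6.34% of promoters and the ATF4 element TGATGNAA in 3.14%, and in 0 of the 8. A GCGTG match overlapped the antioxidant match of AIFM2. These are matches of letters, not shown sites of binding.

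Levels were compared between genes per kilobase of exonic length, which joins all annotated exons of a gene. The main transcript is shorter, at 919 of 2019 bases for GPX4 and 2307 of 4079 for NCOA4. It has 1822 of 2405 bases for HMOX1 and 3243 of 5135 for AIFM2. The places of HMOX1 beside AIFM2 and IREB2, and of NCOA4 beside GPX4, therefore depend on the length used. In DMSO the order was FTL (2352 ± 113 CPM per kb, SD, n = 2), TFRC (278 ± 4.82), FTH1 (161 ± 16.5), GPX4 (83.8 ± 4.13), NCOA4 (71.9 ± 2.15), ACSL4 (36.0 ± 1.83) and AIFM2 (20.7 ± 0.545). HMOX1 (10.6 ± 0.359) and IREB2 (10.6 ± 0.673) came next, with overlapping libraries, and SLC40A1 (0.85 ± 0.316) was lowest. FTH1 passed TFRC at 75 µg/ml (438 ± 11.8 against 192 ± 2.38 CPM per kb) and stayed above it at 150 µg/ml (606 ± 41.4 against 149 ± 2.63). HMOX1 went from the eighth place to the sixth at 150 µg/ml (38.4 ± 1.17), above AIFM2 (34.6 ± 1.09) and ACSL4 (25.5 ± 0.12), and NCOA4 (63.6 ± 1.44) came before GPX4 (60.5 ± 1.61). Over the 763 exonic bases of FTH1 that no other gene overlaps, its level would be 398 to 460 in DMSO and 1534 to 1690 CPM per kb at 150 µg/ml, so its place beside TFRC in DMSO depends on the length used.

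Many genes followed the same course over the 6 libraries. Among 9507 other genes with 10 CPM or more, log2 CPM correlated with that of FTH1 above 0.99 for 119 genes, with TFRC for 321 and with HMOX1 for 143. The closest to FTH1 were SQSTM1, KCTD21 and PCK2 (r = 0.9987, 0.9986 and 0.9985), to TFRC they were ACTB, TGM2 and GOT2 (0.9997, 0.9996 and 0.9996), and to HMOX1 they were TRPC4AP, USP11 and HKDC1 (0.9997, 0.9993 and 0.9990). The points are 6 libraries in 3 groups, so these values describe mainly the relative spacing of the groups. They do not reflect the size of a change. At 150 µg/ml TRPC4AP had a log2 fold change of 0.24, against 1.86 for HMOX1.

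Other genes of the pathway came from 6 lists with 112 genes, of which 92 were tested. Of the 92, 34 were higher and 17 lower at 75 µg/ml, beside 19.2% and 19.4% of all tested genes. Under total counts 43 were higher and 9 lower, beside 4501 and 1816 of all 15589 tested genes. The split at 150 µg/ml was 32 higher and 31 lower, beside 25.8% and 25.7%. Under total counts it was 41 and 13, beside 6031 and 2542 of all tested genes. These values over all tested genes also serve each list below. Genes of iron uptake and cellular transport (11 tested of 17) were 6 higher and 0 lower at 75 µg/ml (median log2 fold change 0.20), and 3 and 3 at 150 µg/ml (0.02; 5 and 1 under total counts). MCOLN1, a lysosomal channel that releases iron, rose from 35.5 ± 3.09 to 53.9 ± 0.0103 CPM (SD, n = 2 each) at 150 µg/ml. SLC39A14, which imports iron not bound to transferrin, rose from 230 ± 7.46 to 288 ± 1.68 CPM. STEAP3, the reductase that acts on iron in endosomes, fell from 68.1 ± 2.45 to 41.6 ± 8.19 CPM, while at 75 µg/ml its log2 fold change was -0.11 (adjusted p = 0.369). LCN2, a carrier of iron-binding siderophores, was at 0.354 ± 0.0549 CPM in DMSO and rose to 2.65 ± 0.955 CPM. The STEAP3 and LCN2 values spread widely between the treated libraries.

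Iron sensing and systemic control genes (9 tested of 11) were 3 higher and 4 lower at 75 µg/ml (median 0.09; 4 and 1 under total counts). At 150 µg/ml 2 were higher and 5 lower (-0.22), and under total counts 2 were higher and 1 lower. The shares of all tested genes were 19.2% higher and 19.4% lower at 75 µg/ml, then 25.8% and 25.7% at 150 µg/ml. Without the first 75 µg/ml library 3 genes were called at that dose. ACO1, which encodes IRP1, fell from 293 ± 2.27 CPM to 234 ± 0.34 and 204 ± 10.5 CPM, and the log2 fold change at 150 µg/ml was -0.52 (SE 0.0494, adjusted p = 1.0e-07). FBXL5, the iron-sensing ligase subunit that marks iron regulatory proteins for degradation, went from 106 ± 0.928 to 126 ± 5.66 and 123 ± 1.26 CPM, and its call at 75 µg/ml was lost without the first library of that dose (adjusted p = 0.0539). EPAS1, which encodes HIF-2α, rose from 89.9 ± 3.81 to 180 ± 8.03 and 211 ± 10.8 CPM. PCBP2, an iron chaperone, fell from 113 ± 2.93 to 93.1 ± 0.0626 CPM at 150 µg/ml, a call lost under total counts (adjusted p = 0.169).

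Mitochondrial iron, heme synthesis and iron-sulfur cluster genes (23 tested of 27) were 5 higher and 4 lower at 75 µg/ml (median 0.04; 7 and 2 under total counts). At 150 µg/ml they were 6 higher and 8 lower (-0.04), or 9 and 3 under total counts. Beside these stand 19.2% higher and 19.4% lower of all tested genes at 75 µg/ml, then 25.8% and 25.7% at 150 µg/ml. ALAS1, the first enzyme of heme synthesis, rose from 152 ± 1.07 to 261 ± 4.19 CPM at 150 µg/ml, and SLC25A37, the mitochondrial iron importer mitoferrin-1, from 253 ± 8.97 to 371 ± 32.3 CPM. ABCB10, a mitochondrial transporter, fell from 45.6 ± 2.42 to 26.4 ± 0.837 CPM.

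Heme transport and breakdown genes (9 tested of 12) were 5 higher and 2 lower at 75 µg/ml (median 0.27), or 6 and 0 under total counts. At 150 µg/ml they were 4 higher and 2 lower (0.39), or 5 and 1 under total counts. Among all tested genes, 19.2% were higher and 19.4% lower at 75 µg/ml, then 25.8% and 25.7% at 150 µg/ml. BLVRB, a biliverdin reductase that acts after heme oxygenase, rose from 48.2 ± 5.57 to 90.1 ± 3.96 CPM at 150 µg/ml. SLC48A1, which carries heme out of lysosomes, rose from 18.7 ± 1 to 34 ± 1.29 CPM. BACH1, a heme-binding repressor of HMOX1, went from 71.3 ± 6.44 to 76.8 ± 1.41 CPM at 75 µg/ml (adjusted p = 0.234) and rose to 93.3 ± 0.0707 CPM at 150 µg/ml. FLVCR1, a heme exporter gene, fell from 30 ± 1.97 to 20.6 ± 0.878 CPM.

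Genes that suppress ferroptosis (21 tested of 21) were 8 higher and 4 lower at 75 µg/ml (median 0.06; 10 and 3 under total counts). At 150 µg/ml they were 10 higher and 9 lower (-0.01), or 11 and 4 under total counts. The shares of all tested genes were 19.2% higher and 19.4% lower at 75 µg/ml, then 25.8% and 25.7% at 150 µg/ml. The 4 with the smallest p at 150 µg/ml act in cystine import, glutathione synthesis and thioredoxin reduction. SLC3A2, the partner chain of the cystine importer, rose from 328 ± 41.8 to 743 ± 18.3 and 1371 ± 145 CPM, and at 150 µg/ml the change was 2.06 on the log2 scale (SE 0.0741, adjusted p = 4.4e-13). Its partner SLC7A11 had a log2 fold change of 1.91 (SE 0.046), GCLM, the modifier subunit of the first enzyme of glutathione synthesis, 1.16 (SE 0.0546) and TXNRD1 1.00 (SE 0.0465). These 4 genes rose beside the fall of GPX4, which uses glutathione. Of the 9 genes of this list that were lower at 150 µg/ml, VKORC1L1 changed most. Its log2 fold change was -1.04 (SE 0.0629, adjusted p = 3.2e-10).

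Genes of ferroptosis promotion and lipid peroxidation (19 tested of 24) were 7 higher and 3 lower at 75 µg/ml (median 0.17), or 10 and 3 under total counts. At 150 µg/ml they were 7 higher and 4 lower (0.25), or 9 and 3 under total counts. Among all tested genes, 19.2% were higher and 19.4% lower at 75 µg/ml, then 25.8% and 25.7% at 150 µg/ml. CHAC1, which degrades glutathione, rose from 5.04 ± 2.22 to 26.5 ± 1.23 and 63.4 ± 3.36 CPM, and at 150 µg/ml the change was 3.66 on the log2 scale (SE 0.158, adjusted p = 4.5e-12). SAT1, a polyamine acetyltransferase, rose from 26.1 ± 1.47 to 74.2 ± 10.1 CPM. FADS2 and ELOVL5, which desaturate and lengthen polyunsaturated fatty acids, fell to 225 ± 2.66 and 259 ± 7.78 CPM from 342 ± 25.2 and 371 ± 8.31 CPM. From 75 to 150 µg/ml the 6 lists held 16 higher and 16 lower genes (19 and 12 under total counts), 32 in all beside 22.0% of all tested genes called, and 17 without the first 150 µg/ml library or 21 without the first 75 µg/ml library.

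**Figure D4:**
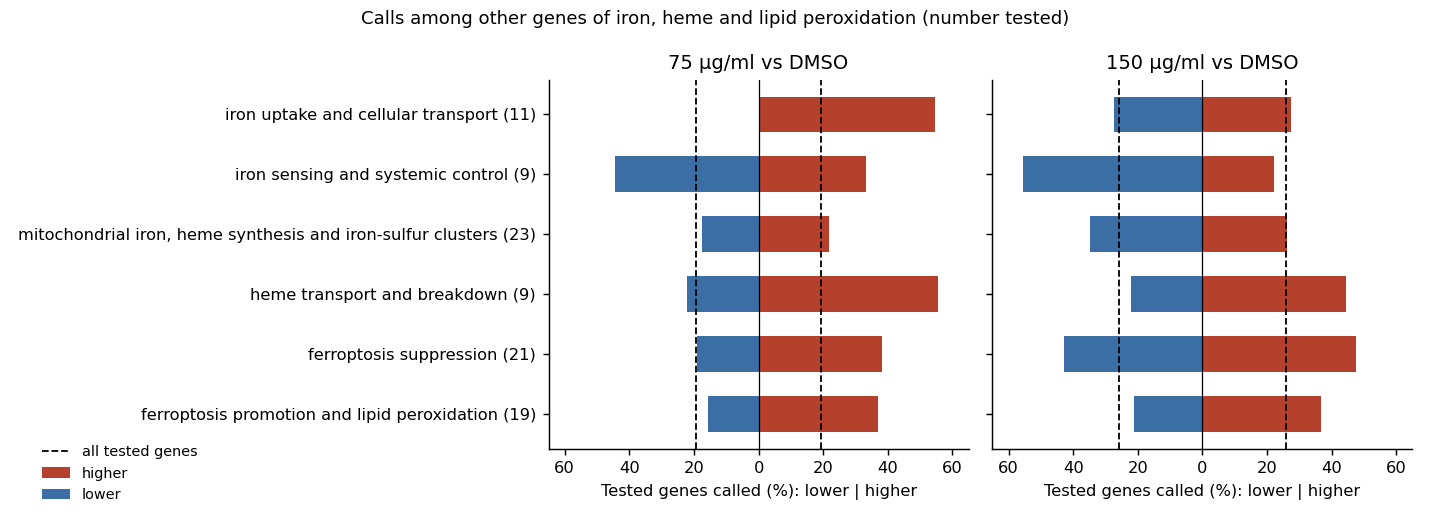
Share of the tested genes of each list called higher (right) or lower (left) at 75 µg/ml (left panel) and 150 µg/ml (right panel) against DMSO, with the number tested in brackets. Dashed lines give the share among all tested genes, 19.2% and 19.4% at 75 µg/ml, then 25.8% and 25.7% at 150 µg/ml. Iron uptake genes have 6 higher and 0 lower of 11 at 75 µg/ml.

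Gene counts per library ran from 15621103 to 17113722. Without TMM scaling, 3 counts correspond to 0.175 to 0.192 CPM, a floor that covers counting error only. Reads outside genes made up 6.32% and 6.72% of counted reads in DMSO and 7.98% and 7.73% at 150 µg/ml, with the 75 µg/ml libraries between these, and the part of this in the results was not tested. The cells are labelled epithelial. Of 7 epithelial markers, KRT8 was at 283 to 531 CPM, whereas EPCAM was at 3.69 to 5.47 CPM and CDH1 was at 0 in DMSO and at most 0.121 CPM. Their summed level was 885 to 895 CPM in DMSO, 689 to 707 at 75 µg/ml and 568 to 590 at 150 µg/ml. The markers did not move together. At 150 µg/ml KRT8, KRT18 and KRT7 were lower (log2 fold changes -0.87, -0.91 and -0.79), while CLDN4 and KRT19 were higher (0.24 and 0.28). At 75 µg/ml KRT8 and KRT18 were lower (-0.57 and -0.66) and CLDN4 was higher (0.45). The mesenchymal genes VIM, CD44 and AXL together fell from 2982 to 3151 CPM in DMSO to 1744 to 1792 CPM at 150 µg/ml, and the part of either change in the results was not tested. Erythroid cells are rich in heme, and the erythroid markers HBA1 and HBB and the leukocyte markers PTPRC, CD3E and MS4A1 were at 0 in the 6 libraries. The 4 erythroid markers summed to at most 0.481 CPM and the 5 leukocyte markers to at most 0.428 CPM. The 5 fibroblast and endothelial markers summed to 2.71 to 6.6 CPM, and the receptor genes ESR1, PGR and ERBB2 to 82 to 100 CPM, nearly all of it ERBB2. In such bulk RNA, fewer cells with a transcript and less RNA per cell cannot be told apart.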

How the data were processed

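RNA was sequenced from 6 libraries (2 per group), with total RNA and a NEBNext library kit per the labels. The authors deposited raw read counts per gene, 60651 gene rows and 5 summary rows per library. HISAT2 2.2.1, HTSeq 2.0.2 and hg38 are named in the submitters' processing notes. Counting options, strand, annotation release and read length are items not given in the sources used here. Summary rows, left out, held 6.32% to 7.98% (no gene) and 10.95% to 11.48% (ambiguous) of reads. The row for reads with several alignments held 0 in every library. Symbols matched 60437 rows, and positions come from GENCODE 29 (58361 rows, GRCh38).

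Counts were fitted with edgeR 4.0.16 in R 4.3.3 (TMM, default low-count filter, 15589 rows tested, quasi-likelihood F-test, Benjamini-Hochberg adjustment at 0.05, 3 residual degrees of freedom). All 6 libraries entered with a mean per group. SE was derived from the F statistic. The test was tested on simulated data with known changes. Likeness used Pearson's r over log2(CPM + 0.5). The listed genes are given in every comparison. From each further list come up to 4 members with the smallest p at 150 µg/ml among those called, and a gene that this rule would name is not reported here. The members, lists and alternatives were chosen with earlier results of these data known. Alternatives were DESeq2 size factors, total counts, no filter, 5 CPM in 2 libraries, DESeq2 1.42.0, limma-voom (limma 3.58.1), only the 2 groups compared, a replicate block, each library left out, an adjusted p of 0.01, and ferritin genes summed with their copies.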

Additional observations from a re-analysis of the deposited data

How the results depend on the processing

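The number of the 10 genes called stayed within 1.5 times its value under each alternative run, at 8 to 9 for 75 µg/ml against DMSO, 9 to 10 for 150 µg/ml against DMSO and 5 to 6 for the dose step. Of 450 gene-by-alternative values of the 10 genes, 434 kept their direction and their side of the threshold. The direction turned under total counts for NCOA4 at 150 µg/ml (0.01) and, in the dose step, for ACSL4 (0.0015), PCBP2 (0.01), FBXL5 (0.03) and SLC25A37 (0.01). It turned for STEAP3 at 75 µg/ml (0.01) under total counts, and for IREB2 at 75 µg/ml without DMSO replicate 1 (-0.004, against 0.13 without DMSO replicate 2). In the dose step it also turned for FBXL5 without the first 75 µg/ml library (0.02, against -0.08 without the second) and for SLC25A37 without the first 150 µg/ml library (0.04, against -0.13 without the second). None of these values passed the test, and the cause was not tested. The call of FLVCR1 at 75 µg/ml was lost under 2 alternatives, and those of PCBP2 (both doses) and FBXL5 (75 µg/ml) under 1. In the dose step, calls of ABCB10, ACO1, ALAS1, BACH1 and EPAS1 were lost under 1 to 3 alternatives. The dose step called 3433 genes, 1507 without the first 150 µg/ml library and 1990 without the first 75 µg/ml library. Deviations of libraries with the same replicate number from their group means correlated at 0.068, 0.043 and 0.003, so the numbers were not taken as pairs. With the replicate block 9, 10 and 5 of the 10 genes were called, as without it. Depth limits SLC40A1 most, at 43 to 161 counts.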

Other observations

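The iron-responsive element pattern occurred in 28 tested genes in the 5′ UTR and 109 in the 3′ UTR. The 28 include the listed FTH1, FTL and SLC40A1, and the 109 include TFRC. Of the 28, 12 were higher and 9 lower at 75 µg/ml (median log2 fold change 0.09), and 12 were higher and 6 lower at 150 µg/ml (-0.01). Of the 109, 23 were higher and 31 lower at 75 µg/ml (-0.01). At 150 µg/ml 34 were higher and 31 lower (-0.05). The shares that follow cover all 15589 tested genes, not only the coding genes with such a UTR. No split of the pattern genes under total counts was made. Of all tested genes, 19.2% were higher and 19.4% lower at 75 µg/ml, then 25.8% higher and 25.7% lower at 150 µg/ml, with medians of 0.01 and 0.03.

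HMOX2, which encodes the constitutive heme oxygenase and was singled out after its values were seen, held 17 counts in 1 DMSO library and 0 in the other 5 libraries. It did not pass the filter on low counts and was not tested. Since the authors' annotation and counting options are not known here, the zeros cannot be read as lack of expression.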
